A study of Mus musculus with 5 samples.

Results

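Interferon-stimulated genes (ISG) are switched on when a cell senses interferon and make up much of its defence against viruses. A list of 32 such genes was followed in SLAMseq libraries of mouse cardiac fibroblasts (CF), by matching gene names in the deposited tables. Of the 32 names, 31 had a row, out of 20365 gene names in all, and no row was named *Mx1*. CF had been isolated from hearts of healthy adult male C57Bl/6J wild-type mice and grown to confluency. SLAMseq marks new RNA with 4-thiouridine (S4U), a uridine analog that after alkylation is read as C in place of T, so that T>C conversions per covered T position (the T>C conversion rate) report RNA made during labeling. The labeled group had 3 libraries, from CF given 0.1 mM S4U for 12 h, and the unlabeled group had 2 libraries, from CF incubated in parallel without S4U. RNA of both groups was alkylated, and the labels and methods name no interferon treatment of either group. These were cultured cells from digested hearts, and bulk RNA cannot tell fewer cells of a type from less RNA per cell.

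Type I interferons act through the receptor chains IFNAR1 and IFNAR2 and the kinases JAK1 and TYK2, which activate STAT proteins. Together with IRF9, these bind the interferon-stimulated response element (ISRE) of ISG promoters. The gamma-activated site (GAS) is the element bound in the response to interferon gamma. Fibroblasts are a classical source of, and responder to, type I interferon.

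The promoters of several ISG carried these elements, and 6 with a match are shown, from the ISG15, antiviral effector, GTPase and IFITM genes. Each is the stretch of 150 bases that ends just before the transcript start, written 5′ to 3′ on the strand of the gene, from the RefSeq promoter table of GRCm38.p6. Capitals mark matches to the ISRE letters, GAAA, any 2 bases and GAAA again, on either strand.
Isg15: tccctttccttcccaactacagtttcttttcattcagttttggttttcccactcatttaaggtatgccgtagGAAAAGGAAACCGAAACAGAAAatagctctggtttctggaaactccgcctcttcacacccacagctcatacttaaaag
Ifit1: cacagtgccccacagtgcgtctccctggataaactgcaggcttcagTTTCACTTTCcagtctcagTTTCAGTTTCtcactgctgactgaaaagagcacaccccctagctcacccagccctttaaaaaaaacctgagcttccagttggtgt
Bst2: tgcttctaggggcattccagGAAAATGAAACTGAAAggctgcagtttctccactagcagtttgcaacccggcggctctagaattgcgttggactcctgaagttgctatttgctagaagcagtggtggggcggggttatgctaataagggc
Gbp7: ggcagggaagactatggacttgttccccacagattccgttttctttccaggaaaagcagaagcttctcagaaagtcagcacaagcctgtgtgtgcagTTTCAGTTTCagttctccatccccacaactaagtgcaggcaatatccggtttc
Irgm1: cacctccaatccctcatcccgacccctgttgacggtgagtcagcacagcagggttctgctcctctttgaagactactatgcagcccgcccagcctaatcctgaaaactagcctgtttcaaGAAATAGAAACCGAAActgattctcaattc
Ifitm2: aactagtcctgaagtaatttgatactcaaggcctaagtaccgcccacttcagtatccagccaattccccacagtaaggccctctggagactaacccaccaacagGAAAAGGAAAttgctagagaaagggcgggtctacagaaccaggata
The window of *Isg15* lies at chr4:156285276-156285425 on the minus strand of GRCm39, and that of *Ifit1* at chr19:34618139-34618288 on the plus strand. The *Bst2* window is at chr8:71990117-71990266 and the *Irgm1* window at chr11:48762248-48762397, both on the minus strand. *Gbp7* was located at chr3:142235947-142236096 on the plus strand and *Ifitm2* at chr7:140535875-140536024 on the minus strand. The match of *Isg15*, a ubiquitin-like protein, consists of 3 overlapping copies, the first starting at -78 from the transcript start. *Ifit1*, which encodes an RNA-binding inhibitor of viral translation, has separate copies starting at -104 and -85. *Bst2* (tetherin, which holds budding virus on the cell) and *Irgm1* (an immunity-related GTPase) each have 2 overlapping copies. *Gbp7*, a guanylate-binding protein, and *Ifitm2*, a membrane protein that hinders viral entry, each have 1 copy.

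The promoter table held 25 of the 31 genes, taking 250 bases before to 50 bases after the start. ISRE letters were found in 14 of the 25 genes (56.0%), beside 3.99% of the 27025 genes and 3.44% of the 32851 promoters in the table. GAS letters, TTCNNNGAA, which read the same on both strands, were found in 7 of the 25 (28.0%), beside 9.55% of all genes. In *Bst2* and *Ifitm3* a GAS match overlapped an ISRE match. *Irf1*, a transcription factor of the interferon response, had a GAS match at -90 and no ISRE match, whereas *Ifitm3* had its matches after the start, at 3, 14 and 20. *Irf7*, *Irf9*, *Oasl2*, *Ifitm1*, *Dtx3l*, *Ifi44*, *Xaf1* and *Sp100* had no match in this window. A match is a description of letters, not a measured binding site.

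**Figure D1:**
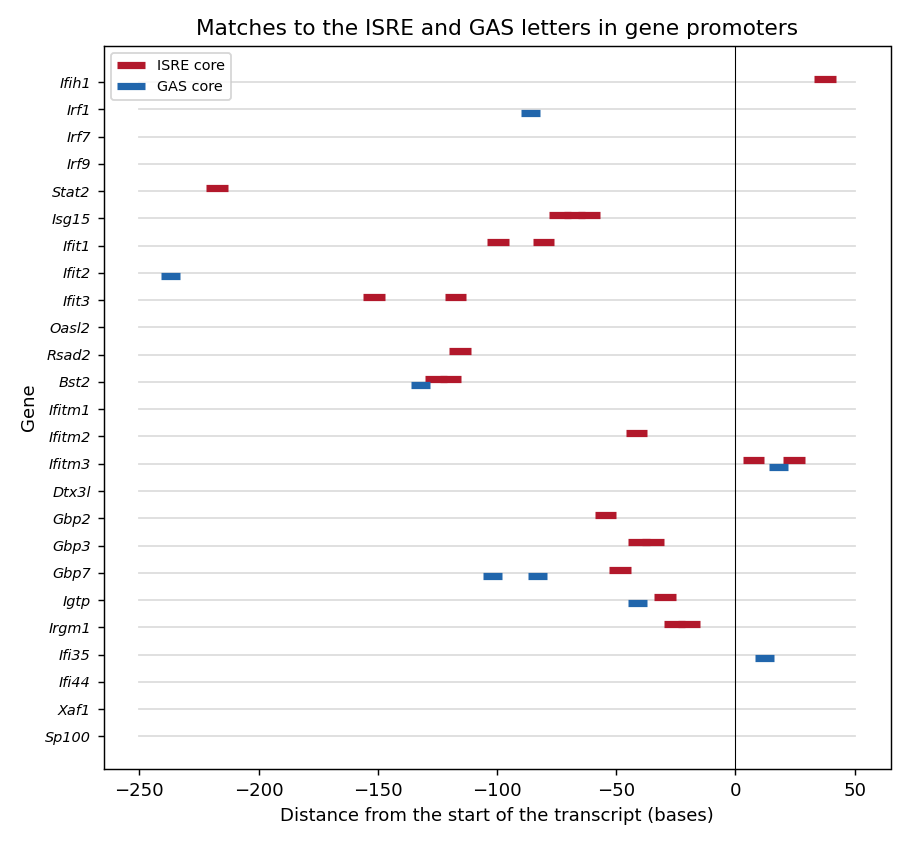
Positions of ISRE letters (red) and GAS letters (blue) in the promoters of 25 interferon-stimulated genes, with the distance from the transcript start in bases on the x axis and 1 line per gene. ISRE matches are present in 14 genes and mostly lie before the start.

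Most of the genes were expressed above the middle of all detected genes, with no interferon treatment named. Levels are given as CPM, the reads of a gene per 1000000 reads counted on 1 interval per gene, and because the libraries read the 3′ end of each transcript they are not divided by length. The median over the 31 genes was 43.9 CPM in the labeled libraries, beside 21.1 CPM over the 13797 genes with a read there, and 27 of the 31 lay above that value. By library, the median of the 31 was 59.6, 19.3 and 43.5 CPM in labeled replicates 1, 2 and 3 and 65.7 and 36.1 CPM in unlabeled replicates 1 and 2. In each library, the 31 genes held between 0.224% and 0.399% of the counted reads. All 31 had at least 1 read in every library, as had 32 of 46 further interferon-induced genes with a row. A covered T position in every library was found for all 31 and for 11179 of the 20365 gene names. The list was chosen with earlier results of these data known, so these counts do not describe ISG in general. Reads on 1 interval per gene came to between 506045 (labeled replicate 3) and 1842863 (unlabeled replicate 1).

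The CF identity of the cultures was checked with marker genes. All 7 fibroblast markers, *Col1a1* and *Dcn* among them, had reads in every library, with a summed level between 30670 and 41730 CPM. The 5 cardiomyocyte markers summed to between 0.635 and 8.03 CPM. Markers of other cells were present at low levels. The 9 leukocyte and macrophage markers summed to between 71.1 and 134 CPM, 8 of the 9 with reads in every library and *Ptprc* at 0 reads in labeled replicate 3, and the 5 endothelial markers to between 113 and 221 CPM.

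The IFITM protein gene *Ifitm3* had the highest mean of the list in the labeled libraries, although *Isg15* had the highest single value. *Ifitm3*, which blocks fusion of enveloped viruses with the endosome, was at 277, 991 and 751 CPM in labeled replicates 1, 2 and 3 and at 260 and 1073 CPM in unlabeled replicates 1 and 2. *Ifitm2* was at 166, 361 and 310 CPM in the labeled and at 214 and 431 CPM in the unlabeled libraries. In both genes the libraries numbered 1 were the low ones in each group. *Ifitm1* had between 2 and 8 reads per library.

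The ISG15 system comprises the ubiquitin-like modifier ISG15 and the protease USP18, which removes it from proteins and dampens the receptor. *Isg15* was at 1122, 47.7 and 265 CPM in labeled replicates 1, 2 and 3 and at 832 and 57.2 CPM in the unlabeled replicates 1 and 2. Its mean in the labeled libraries was 478 ± 568 CPM (SD, n = 3), at the 97.7th percentile of genes with a read. *Usp18* was at 38.1, 4.18 and 45.5 CPM in the labeled and at 26.1 and 7.03 CPM in the unlabeled libraries. Here the libraries numbered 2 were low in both groups, and the groups overlapped.

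In each group the antiviral effectors were higher in replicate 1 than in replicate 2, while the place of labeled replicate 3 varied. *Ifit1* was at 456, 28.5 and 113 CPM in labeled replicates 1, 2 and 3 and at 343 and 40.2 CPM in unlabeled replicates 1 and 2. *Ifit3*, its partner in the IFIT complex, was at 156, 30.1 and 130 CPM and at 165 and 49.2 CPM. This value is uncertain, since 18.9% of the runs of 50 bases in its interval also occur in intervals of other genes, its near-copy *Ifit3b* among them. *Ifit2* varied less, at 29.8, 19.3 and 15.8 CPM with S4U and at 38.5 and 29.1 CPM without. *Bst2* was at 371, 133 and 289 CPM and at 396 and 133 CPM, the level of both libraries numbered 2 being the lowest. *Oasl2*, an OAS-like protein, was at 89.5, 15.9 and 61.3 CPM and at 66.7 and 31.1 CPM. *Rtp4*, a chaperone-like protein induced by interferon, was at 51.4, 16.7 and 75.1 CPM and at 68.9 and 23.1 CPM. *Rsad2* (viperin) had a mean below 20 reads in the labeled libraries, with 33, 14 and 4 reads there and 94 and 17 reads in the unlabeled libraries.

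Among the GTPases, *Gbp7* was at 157, 31.0 and 41.5 CPM with S4U and at 141 and 36.1 CPM without. *Gbp3* was at 83.1, 12.6 and 27.7 CPM and at 102 and 20.1 CPM, so the libraries numbered 1 stood highest in both. *Iigp1* and *Irgm1*, immunity-related GTPases that act on pathogen vacuoles, were at 159, 13.4 and 71.1 CPM and at 128, 36.8 and 92.9 CPM in the labeled libraries. Their unlabeled levels were 165 and 39.2 CPM for *Iigp1* and 96.1 and 52.2 CPM for *Irgm1*. *Igtp* was at 25.4, 10.0 and 43.5 CPM and at 23.9 and 20.1 CPM. *Gbp2* ran the other way in both groups, at 14.6, 24.3 and 37.6 CPM in labeled replicates 1, 2 and 3 and at 22.8 and 58.2 CPM in the unlabeled libraries. The interval of *Igtp* overlaps the annotated gene *Irgm2* on the same strand.

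Signalling genes differed in how far the libraries lay apart. *Irf9* was at 84.4, 72.8 and 123 CPM and at 65.7 and 74.3 CPM. *Stat2* was at 102, 48.5 and 63.2 CPM with S4U and at 101 and 64.3 CPM without. *Irf1* was at 64.1, 44.4 and 43.5 CPM in the labeled and at 106 and 91.4 CPM in the unlabeled libraries, which do not overlap. *Irf7*, the factor that amplifies type I interferon, was at 22.8, 5.86 and 43.5 CPM and at 41.2 and 9.04 CPM. *Ifih1*, which encodes the RNA sensor MDA5, was at 29.2, 9.21 and 27.7 CPM and at 46.7 and 18.1 CPM. For *Irf7* and *Ifih1* the libraries numbered 2 were again the lowest of their group.

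PARP9 and DTX3L form a complex of an ADP-ribosyltransferase-like protein and a ubiquitin ligase. *Parp9* was at 47.0, 25.9 and 21.7 CPM and at 55.4 and 42.2 CPM. *Dtx3l* was at 33.0, 39.3 and 59.3 CPM in the labeled and at 20.1 and 25.1 CPM in the unlabeled libraries, so its groups do not overlap. *Parp14* was at 24.8, 14.2 and 25.7 CPM and at 34.2 and 12.1 CPM. Of the remaining genes, *Ifi27*, a mitochondrial protein, was the most even, at 135, 149 and 119 CPM and at 147 and 137 CPM. *Ifi44* was at 59.6, 7.53 and 43.5 CPM and at 60.2 and 6.02 CPM. *Ifi35* was at 27.3, 17.6 and 25.7 CPM and at 19.5 and 13.1 CPM. *Sp100*, a nuclear body protein, had 24, 16 and 12 reads with S4U and 41 and 37 without, and *Xaf1* had between 1 and 8 reads per library.

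**Figure D2:**
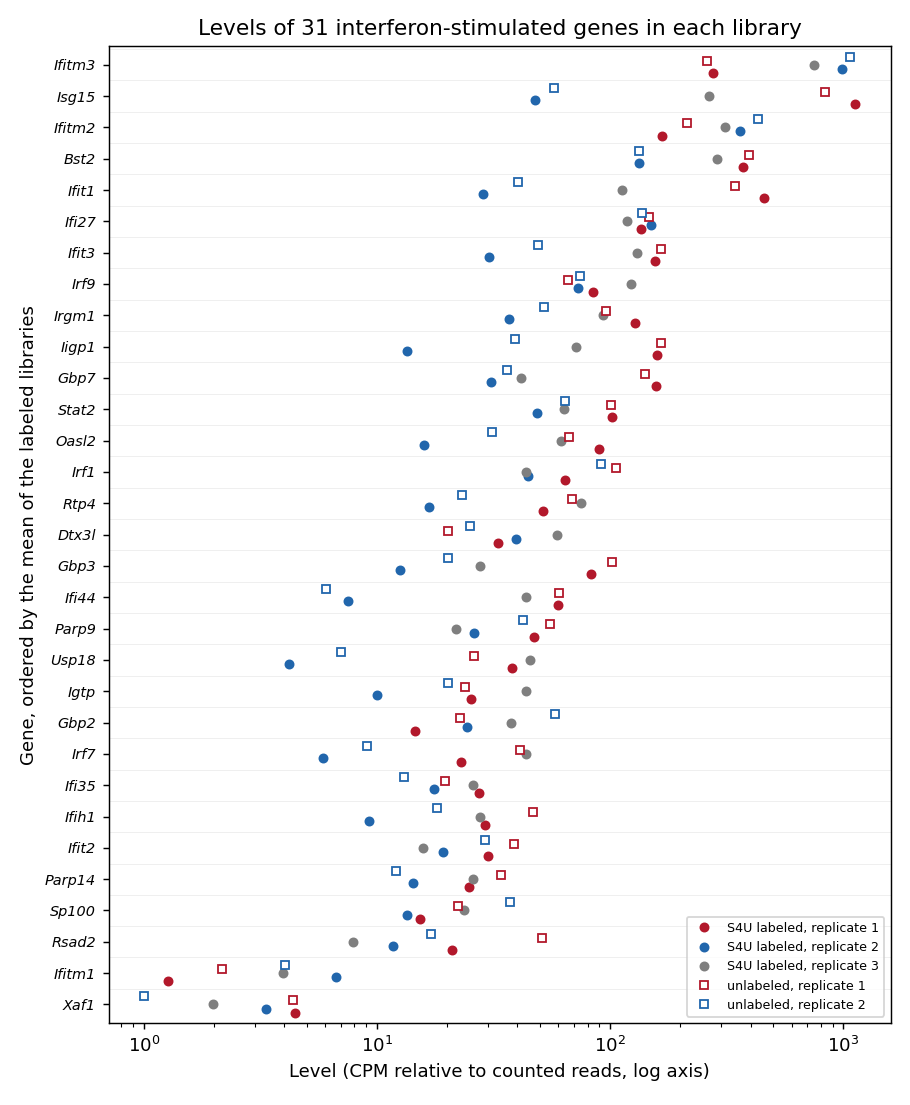
Level of each interferon-stimulated gene in each of 5 libraries, in CPM relative to counted reads on a log axis, with filled circles for labeled and open squares for unlabeled libraries (red replicate 1, blue replicate 2, grey replicate 3). *Isg15* lies at 1122 and 832 CPM in the libraries numbered 1 and at 47.7 and 57.2 CPM in those numbered 2, while *Ifitm3* shows the reverse.

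Whether S4U itself moved these genes was addressed by the reads of labeled against unlabeled libraries. In the fit on group alone, no difference passed the test for any of the 29 genes tested (*Ifitm1* and *Xaf1* were too low), and their log2 fold changes centred near 0. The study's methods name CF preparations as the replicates of SLAMseq, but do not say which preparation each unlabeled library came from, so p-values rest on the spread between these libraries, which may in part be technical. With edgeR's quasi-likelihood test and Benjamini-Hochberg adjustment, 0 of 29 genes were called at an adjusted p below 0.05, beside 0 of 9807 genes tested (0%). DESeq2 called 14 genes in all, none of them on the list. At an unadjusted p below 0.05, edgeR gave 2 of the 29 genes, beside 585 of the 9807 (5.97%), and DESeq2 gave 1 of 31, beside 391 of 14283. With the replicate number as a block (1 residual degree of freedom), 4 of the 29 were called, beside 1145 of 9807 genes. This fit compares replicates 1 and 2 only, since labeled replicate 3 has no unlabeled partner. All 4 were lower with S4U (*Irf1*, *Rsad2*, *Gbp2* and *Sp100*), so the count of 0 holds only without the block.

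Without the block, the median log2 fold change of the 29 genes was 0.003 (15 above 0), beside 0.018 over all genes tested. The single values ran from -1.19 to 1.01. *Dtx3l* was higher with S4U, by 1.01 ± 0.40 on the log2 scale (SE; edgeR adjusted p = 0.799). *Irf1* was lower, at -0.87 ± 0.28 (edgeR adjusted p = 0.724). They were the genes below the unadjusted threshold and also the only members tested whose groups did not overlap. Over all genes tested, every labeled library lay above both unlabeled ones for 8.20% and below both for 13.1%. For *Isg15* the log2 fold change was 0.20 ± 1.30 and for *Ifit1* 0.15 ± 1.13, so a change of several fold in either direction was within the error. *Ifi27* had the smallest error, at 0.00 ± 0.24. *Rsad2* had the lowest value, at -1.19 ± 0.55 (edgeR adjusted p = 0.883). Leaving out unlabeled replicate 1 raised the median of the list to 0.80 and leaving out unlabeled replicate 2 lowered it to -0.47, with no gene called in either.

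**Figure D3:**
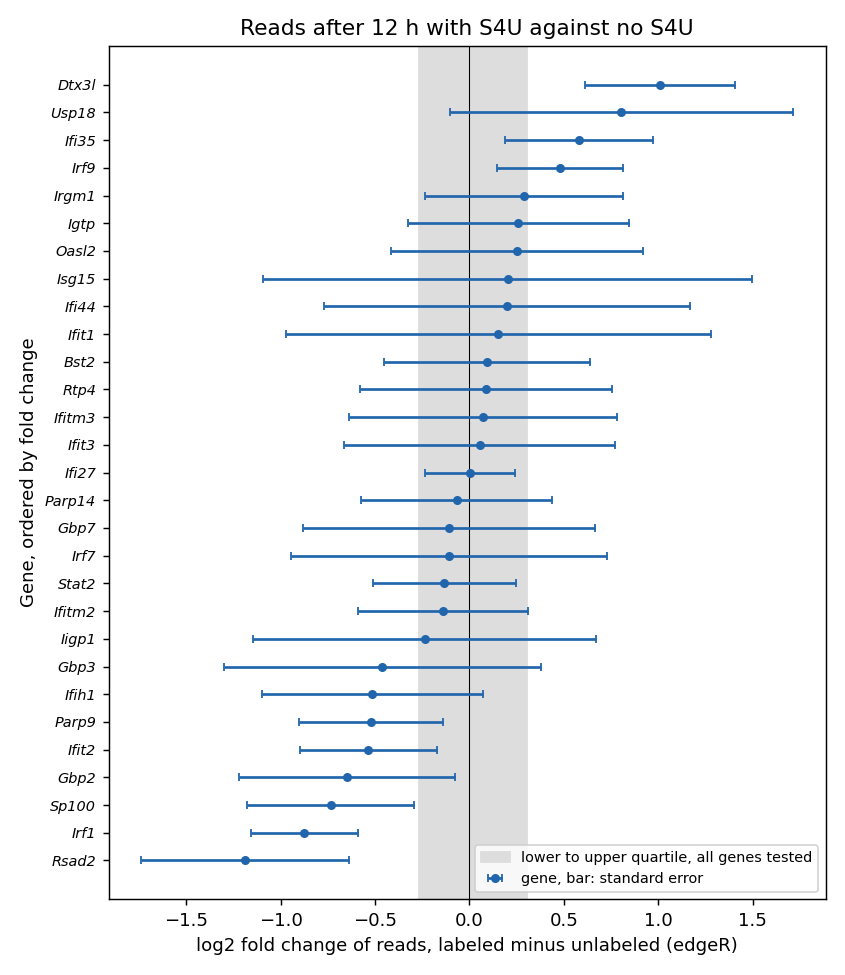
Log2 fold change of reads, labeled minus unlabeled, for the 29 genes tested with edgeR (points, with standard errors as bars), over the range between the quartiles of all 9807 genes tested (grey band, -0.27 to 0.30). The bars are widest for *Isg15* and *Ifit1*, *Rsad2* and *Dtx3l* have the lowest and the highest value, and other genes on both sides lie outside the band too.

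The spread within each group was large and took the same direction in both groups. Libraries numbered 1 held more reads of most of these genes than libraries numbered 2, with and without S4U. This comparison was chosen after the data were seen, with 1 library per number and group, and no test was run on it. On the log2 CPM scale (TMM scaling, prior count of 2), 12 of the 29 genes were at least 2-fold higher in replicate 1 than in replicate 2 in both groups, beside 342 of 9807 genes (3.49%). They were *Isg15*, *Usp18*, *Ifit1*, *Ifit3*, *Bst2*, *Rtp4*, *Irf7*, *Ifih1*, *Gbp3*, *Gbp7*, *Iigp1* and *Ifi44*. Some rest on few reads in labeled and unlabeled replicate 2, with 5 and 7 for *Usp18*, 7 and 9 for *Irf7* and 11 and 18 for *Ifih1*. In the other direction, *Ifitm2* and *Ifitm3* were at least 2-fold higher in replicate 2 in both groups, 2 of 29 beside 860 of 9807 genes (8.77%).

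*Isg15* differed most, 23.5-fold between labeled replicates 1 and 2 and 14.6-fold between the unlabeled ones, in CPM. *Ifit1* differed 16.0-fold and 8.54-fold, *Iigp1* 11.9-fold and 4.21-fold, and *Ifi44* 7.92-fold and 10.0-fold, the last on only 9 and 6 reads in the libraries numbered 2. *Ifitm3* was 3.57-fold and 4.13-fold higher in replicate 2. The median difference over the 29 genes, replicate 1 minus replicate 2, was 1.19 on the log2 scale in the labeled and 0.97 in the unlabeled libraries, beside 0.06 and 0.01 over all genes tested. Of the 29, 22 were higher in replicate 1 in both groups, beside 4083 of all 9807 genes tested. In replicate 2, 4 of the 29 were higher in both groups, beside 3680 of the 9807. *Irf9*, *Ifi27* and *Sp100* differed in sign between the groups. All 12 genes of the first set were higher in labeled replicate 3 than in either library numbered 2. They had been picked for low values in those libraries, so this adds no separate evidence. Over all 29 genes, the median of labeled replicate 3 minus labeled replicate 2 was 0.85 on the log2 scale, beside 0.01 over all genes tested. No source used here states that libraries of the same number share a preparation of cells.

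Other measures moved with the same libraries. The summed leukocyte and macrophage markers were at 71.1 and 73.8 CPM in the labeled and unlabeled libraries numbered 1, at 125 and 134 CPM in those numbered 2 and at 81.0 CPM in labeled replicate 3. The endothelial markers were at 113 and 159 CPM, at 204 and 221 CPM and at 117 CPM. In each group both sums were lower in the library numbered 1 than in that numbered 2, but not every marker was. *Ptprc*, *Csf1r*, *Lyz2*, *Fcer1g*, *Tyrobp*, *Pecam1*, *Kdr* and *Tek* were lower in the library numbered 1 in both groups. *Itgam* and *Emcn* were higher there in both groups, and *Cd68*, *Adgre1*, *Cd14* and *Cdh5* differed in direction between the groups. Single markers varied in labeled replicate 3. Of the leukocyte and macrophage markers, *Lyz2*, *Fcer1g* and *Csf1r* were higher there than in either library numbered 1, as *Ifitm2* and *Ifitm3* were. *Ptprc*, *Cd68*, *Adgre1*, *Cd14* and *Itgam* were lower there than in either, and *Tyrobp* lay between them. The methods for CF isolation include a magnetic step that removes endothelial and immune cells. The part of remaining cells in the result was not tested. The libraries numbered 1 were the deepest of each group. Thinned to the reads of the smallest library, 11 of the 29 genes were at least 2-fold higher in replicate 1 in both groups, beside 309 of all 9807.

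**Figure D4:**
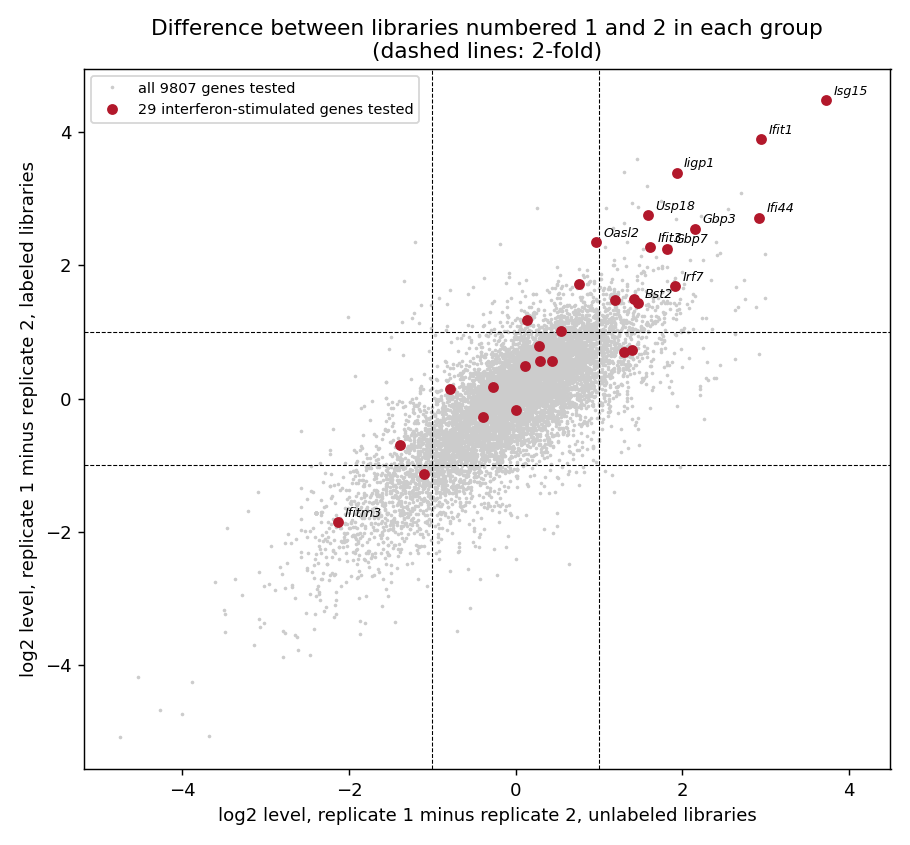
Difference in log2 level between libraries numbered 1 and 2 in the unlabeled (x axis) and labeled (y axis) libraries, for all 9807 genes tested (grey) and the 29 interferon-stimulated genes tested (red), with dashed lines at 2-fold. Of the red points, 12 lie beyond 2-fold at the upper right and 2 (*Ifitm2* and *Ifitm3*) at the lower left.

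Further genes of the pathway were read from lists of ligands, receptors, signal transducers, sensors and other interferon-induced genes. The ligands *Ifnb1*, *Ifna4*, *Ifng* and *Ifnl2* had 0 reads in every library, which allows up to 3 reads per library. Of the receptors and kinases, *Ifngr1* (357, 188 and 211 CPM, and 343 and 221 CPM), *Jak1* (285, 577 and 453 CPM, and 404 and 831 CPM) and *Ifnar2* (between 146 and 180 CPM) had the highest levels. *Ifngr1* was higher in the libraries numbered 1, whereas *Jak1* was higher in those numbered 2. Among STATs, IRFs and feedback genes, *Stat3* led with 325 to 563 CPM, followed by *Irf2bp2* and *Socs3*.

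Of the nucleic acid sensors and adaptors, *Sting1* was highest, between 77.4 and 141 CPM, and was followed by *Tbk1* and *Ddx58* (the sensor RIG-I). Of the 46 further interferon-induced genes with a row, 32 had a read in every library, 2 had none in any, and 28 had enough reads to be tested. The 3 highest were *Shisa5*, at 233, 643 and 820 CPM and at 210 and 527 CPM, *Lgals3bp*, at 202, 334 and 455 CPM and at 147 and 323 CPM, and *Ifi27l2a*, between 83.3 and 133 CPM. *Shisa5* and *Lgals3bp* were low in the libraries numbered 1, as *Ifitm2* and *Ifitm3* were. Between labeled and unlabeled libraries, 0 of the 58 pathway genes tested were called by edgeR. At an unadjusted p below 0.05, 1 was found, *Trim30a*, a feedback regulator of innate signalling, at 58.4, 36.8 and 88.9 CPM with S4U and at 28.8 and 30.1 CPM without (log2 1.11 ± 0.44, edgeR adjusted p = 0.799). Between the replicate numbers, 7 of the 58 were at least 2-fold higher in replicate 1 in both groups, beside 3.49% of all genes tested, and 3 were at least 2-fold higher in replicate 2, beside 8.77%.

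The T>C conversion rate was higher after 12 h with S4U for nearly all of these genes. By the beta-binomial likelihood-ratio test of conversions among covered T positions, 30 of 31 genes had a higher rate in the labeled libraries at p below 0.05 (unadjusted, and equally after Benjamini-Hochberg adjustment), beside 18200 of 19240 intervals (94.6%). The exception was *Xaf1* (beta-binomial p = 0.24), whose interval had 111, 53 and 7 covered T positions in labeled replicates 1, 2 and 3. Every labeled rate lay above both unlabeled rates for 28 of 31 genes, beside 90.4% of 11179 genes. In 8 genes the deposited count of conversions on covered T positions was 0 in both unlabeled libraries. For *Irf1*, 1 of the 8, the deposited counts of reads with a conversion were not 0 there, at 1.03% and 2.20% of its reads, so these columns differ. For *Ifit1* this was 0 of 6385 and 0 of 720 covered T positions, which allows rates up to 0.00047 and 0.00417.

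The size of the rate varied within the list. In the 27 genes that had 100 or more covered T positions in each labeled library, the mean rate ran from 0.0142 (*Bst2*) to 0.0487 (*Gbp3*), with a median of 0.0378. The median of all 8394 such genes was 0.0384, with quartiles of 0.0336 and 0.0425. On the list, 7 of the 27 lay below the lower quartile, 7 above the upper quartile and 13 between them. Only *Irf9*, *Bst2*, *Ifitm2* and *Ifitm3* reached 1000 covered T positions in each labeled library, and their median rate was 0.0217, beside 0.0388 over 2121 genes. All 4 lay below the lower quartile of these genes, 0.0343.

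*Bst2* had rates of 0.0182, 0.0106 and 0.0139 in labeled replicates 1, 2 and 3, with 95% exact binomial (Clopper-Pearson) intervals of 0.0153 to 0.0214, 0.00694 to 0.0155 and 0.00915 to 0.0201. Its unlabeled rates were 0.000998 and 0.000521. *Ifitm2* was at 0.0194, 0.0176 and 0.0200 and *Ifitm3* at 0.0256, 0.0218 and 0.0261, and the highest upper bound of their intervals was 0.0306. Every labeled rate of these genes was therefore below the lower quartile of all genes, in the libraries with high and with low levels. The intervals cover counting error only. Their 3′ UTR intervals are short, with 65 T positions in *Bst2*, 33 in *Ifitm2* and 35 in *Ifitm3*.

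*Isg15* had rates of 0.0375 (0.0349 to 0.0401), 0.0218 (0.0120 to 0.0363) and 0.0393 (0.0304 to 0.0499) in labeled replicates 1, 2 and 3, against 0.00114 and 0.00150 in the unlabeled libraries. The value in replicate 2, where the level was lowest, rests on 14 conversions in 643 covered T positions, and its interval overlaps both others. *Ifit1* was at 0.0402, 0.0454 and 0.0264, with overlapping intervals. The highest means were those of *Gbp3* at 0.0487 ± 0.0063 (SD, n = 3), *Parp9* at 0.0485 ± 0.0029 and *Ifi44* at 0.0480 ± 0.0083. Rates of *Parp14* (0.0393, 0.0194 and 0.0648) and *Igtp* (0.0285, 0.0160 and 0.0571) scattered most among the 27 genes, on 360 and 313 covered T positions in replicate 2.

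Summed over the genes of a class, the rate in labeled replicates 1, 2 and 3 was 0.0236, 0.0209 and 0.0248 for the IFITM proteins and 0.0392, 0.0389 and 0.0454 for the GTPases. The intervals of these classes did not overlap in any labeled library. Sensors and signalling genes were at 0.0321, 0.0350 and 0.0358. Over all 31 genes the summed rate was 0.0344, 0.0264 and 0.0338, beside 0.0347, 0.0351 and 0.0348 over all genes. In labeled replicate 2, *Ifitm3* alone gave 18174 of the 42312 covered T positions of the list.

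**Figure D5:**
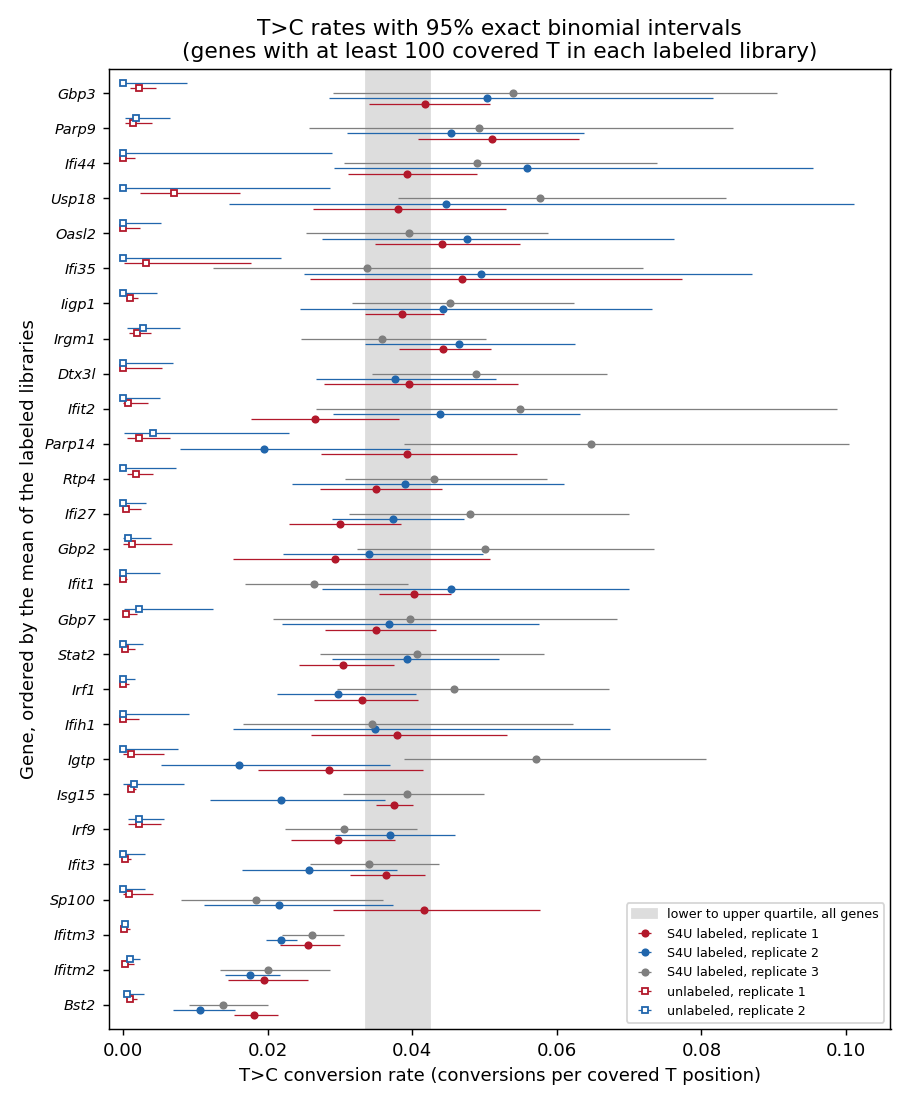
T>C conversion rate of the 27 genes that had 100 or more covered T positions in each labeled library, by library (filled circles labeled, open squares unlabeled), with 95% exact binomial intervals as bars and the range between the quartiles of all such genes as a grey band (0.0336 to 0.0425). *Bst2*, *Ifitm2* and *Ifitm3* lie to the left of the band in every labeled library, and all unlabeled rates lie near 0.

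The intervals counted were 3′ UTR stretches of mm39. For *Isg15* (ENSMUSG00000035692.9) the interval was chr4:156283881-156284040, for *Ifit1* (ENSMUSG00000034459.10) chr19:34626258-34627409 and for *Bst2* (ENSMUSG00000046718.10) chr8:71986899-71987124. Those of *Ifitm2* (ENSMUSG00000060591.11) and *Ifitm3* (ENSMUSG00000025492.8) were chr7:140534750-140534897 and chr7:140589503-140589637. For 30 of the 31 genes the interval lay to at least 98% in annotated untranslated exon sequence, the exception being *Parp14* at 64.8%. Their lengths ran from 42 to 3577 bases with a median of 753.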

How the data were processed

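SLAMseq libraries of CF were analysed, 3 labeled and 2 unlabeled, grouped by the labels. The authors extracted unique molecular identifiers, mapped reads to mm39 with SLAM-DUNK and removed duplicates with UMI-tools. They deposited counts per 3′ UTR interval (reads, reads with a conversion, covered T positions and conversions), a conversion rate as a fraction of covered T positions, and a CPM value. The deposited CPM divides by between 10975173 and 14616278 reads per library, more than were counted on the intervals, so CPM relative to counted reads was computed. 

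Each table had 97442 rows with 40428 distinct intervals. Rows that repeat were dropped. For each gene, the interval highest in mean deposited CPM over the labeled libraries was used. On the reference's chromosomes, 40380 of 40380 intervals had the T content of GRCm39. Read counts were compared over all genes with edgeR's quasi-likelihood test (TMM, filterByExpr, two-sided, Benjamini-Hochberg adjustment) and conversions with a two-sided beta-binomial likelihood-ratio test. The edgeR test returns no standard error, so the one given is the absolute log2 fold change divided by the square root of the F statistic. Both tests were run on simulated counts drawn independently for each library. Same-numbered libraries here deviate together, so the simulation does not measure how the tests perform on these data. The members and lists were chosen with earlier results of these data known. Every member was named, in full where its mean was at least 20 reads in the labeled libraries. Of the pathway lists, the 3 genes with the highest level of each and those at an unadjusted p below 0.05 were named. A result for a further gene is not reported here. Promoters came from RefSeq (GRCm38.p6), and the printed windows were found in GRCm39 by exact match.

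Alternatives were DESeq2, other scalings, other filters, summed intervals, a replicate block, other minimums of covered T positions, limma on log odds (pseudocount of 0.5) and each library left out. Tools were Python 3.11.15, scipy 1.17.1, pandas 2.3.3, numpy 2.4.6 and matplotlib 3.10.9, and DESeq2 1.42.0, limma 3.58.1 and edgeR 4.0.16 under R 4.3.3. PCR duplicates were removed before deposit, and intervals and limits cover counting error only.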

Additional observations from a re-analysis of the deposited data

How the results depend on the processing

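The count of 0 genes of the list with changed reads held under other scalings, other filters, summed intervals, DESeq2 and each library left out. With the replicate number as a replicate block, which leaves 1 residual degree of freedom, 4 of the 29 genes were called, all lower with S4U (*Irf1*, *Rsad2*, *Gbp2* and *Sp100*), and 1145 of 9807 genes overall (528 higher, 617 lower), against 0 without it. Deviations of same-numbered libraries from their group means correlated at 0.784 (replicate 1) and 0.638 (replicate 2). Labeled replicate 3 correlated at 0.482 with unlabeled replicate 2 and at -0.482 with unlabeled replicate 1, since deviations of 2 libraries mirror each other. No source says that a number marks a shared preparation, and the cause of the difference was not tested. DESeq2 called 14 of all genes. The median log2 fold change of the list ranged from -0.472 to 0.799 with 1 library left out and was -0.190 with the block. Of 319 values of single genes under these settings, 51 changed sign without a call, 4 were called under the block and 0 reversed with a call.

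Where every library had to cover 1000 T positions, 4 of 4 genes of the list and 3154 of 3156 intervals had a raised T>C rate, fewer because fewer were tested. Limma on the log odds called 30 of 31 with and without the replicate block, beside 18435 and 18244 of 19240 intervals. The beta-binomial test without each library in turn gave 28 to 29, beside 17056 to 18632 intervals. The median rate of 0.0217 over 4 genes became 0.0378 with a minimum of 100 covered T positions and 0.0372 with a minimum of 1. With 1 labeled library left out it ranged from 0.0214 to 0.0314, over 4 to 7 genes. The median level of 43.9 CPM was 3.60 in deposited CPM, whose denominator is larger, and 50.4 with summed intervals. The count of 12 genes at least 2-fold higher in replicate 1 in both groups was between 11 and 13 under alternatives chosen after the data were seen. Depth limits *Rsad2*, *Sp100*, *Ifitm1* and *Xaf1* most.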
